A study of Mus musculus with 16 samples.

Results

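The active zone is the patch of presynaptic membrane where synaptic vesicles dock, are primed and fuse. It is built by a small set of large proteins. RIM proteins in their long form bind Rab3 on the vesicle, Munc13 and the calcium channels. RIM-binding protein links RIM to the channels, Munc13 primes vesicles, and bassoon, piccolo, ELKS and liprin-alpha form the surrounding scaffold. The 10 genes described here encode these proteins: the 4 RIM genes Rims1, Rims2, Rims3 and Rims4, and 6 scaffold and priming genes, Bsn (bassoon), Pclo (piccolo), Unc13a (Munc13), Erc2 (an ELKS protein), Rimbp2 (RIM-binding protein) and Ppfia3 (a liprin-alpha). They were taken by symbol from the 55487 genes of the count table, and all 10 were among the 18609 genes tested, those that reached 10 counts in 4 or more mice. Rims4 was selected on its difference between evacetrapib and vehicle in these same mice, and the rest of the family was added around it, so treatment values of these genes are given as a description without a test. The genotype difference and the interaction of genotype with treatment are not the contrast that chose Rims4, and they were tested. The members were all chosen with earlier results of these data known.

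RNA was sequenced from bulk brain of 16 female mice in 4 groups of 4. All mice carried a human CETP transgene (cholesteryl ester transfer protein, which moves cholesteryl esters and triglycerides between lipoproteins, under its own promoter) on a C57BL/6J background, and all ate a diet with 1% cholesterol. The CETPtg mice carried this transgene alone, and the APPtg/CETPtg mice also carried human APP with the Swedish and Indiana mutations, expressed in neurons from the Thy1 promoter. From 11 weeks of age, each genotype received the CETP inhibitor evacetrapib at 30 mg/kg per day or vehicle for 11 weeks. Bulk tissue cannot tell fewer cells of a type from less RNA per cell. Nothing in the labels ties mice to litters, so p-values measure the spread between these mice.

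Library totals ran from 21391335 to 55453789 counts. APPtg/CETPtg libraries held 21391335 to 27398792 counts except mouse S8 with 55453789, and CETPtg libraries held 28626139 to 46800787. Thy1 followed the genotype labels. It ranged from 684 to 807 CPM (counts scaled to a common library total) in CETPtg mice and from 865 to 2063 CPM in APPtg/CETPtg mice. App, also checked, was not called by genotype (log2 0.05, SE 0.05, edgeR test, adjusted p = 0.574). Genotype could not be told apart from the index plate column, and treatment could not be told apart from the plate row. The 11 neuronal markers summed to between 7505 and 8908 CPM in every mouse. Regional markers differed between mice: 6 olfactory bulb markers summed to 21.1 to 211 CPM, and 7 choroid plexus markers to 172 to 813 CPM.

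The RIM genes differ in size. The longest annotated coding sequence held 1424 codons in Rims1 and 1572 in Rims2, against 307 in Rims3 and 269 in Rims4, whose short proteins keep only the C-terminal part of the long forms. The coding sequences of Rims3 and Rims4 were 72.7% identical over 582 aligned bases, and those of Rims1 and Rims2 73.1% over 1073. The longest runs of identical bases in these coding sequences are given because they bear on whether reads can be assigned to one gene.
Rims1 and Rims2, 23 bases: aatgacggcagccagtccgacac
Rims2 and Rims4, 17 bases: cgccagaccctggctac
Rims3 and Rims4, 15 bases: ccagttcagtgactt
No pair of RIM coding sequences shared a longer identical run than the 23 bases of Rims1 and Rims2. Exons of the 4 RIM genes overlapped no other annotated gene. Unc13a shared 495 bases, 3.92% of its exon length, with Colgalt1 on the opposite strand, and Bsn, Pclo, Erc2, Rimbp2 and Ppfia3 shared 34 to 496 bases with a small antisense or microRNA gene. The strand setting of the counting was not given in the sources used here, so those overlaps leave a small uncertainty in the counts.

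Sequence upstream of the start is shown for Pclo and Ppfia3, the 2 members called lower and higher by genotype. Each run covers the 250 bases before the RefSeq transcription start on GRCm38.p6, in the direction of the gene, and capitals mark the GC box GGGCGG or its reverse complement CCGCCC, the core of Sp1-type sites.
Pclo, plus strand, chr5:14514668-14514917: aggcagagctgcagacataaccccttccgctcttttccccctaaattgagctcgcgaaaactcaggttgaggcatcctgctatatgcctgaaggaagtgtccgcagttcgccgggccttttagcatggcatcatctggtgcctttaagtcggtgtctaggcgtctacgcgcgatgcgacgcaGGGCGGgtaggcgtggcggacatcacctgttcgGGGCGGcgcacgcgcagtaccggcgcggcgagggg
Ppfia3, minus strand, chr7:45367020-45367269: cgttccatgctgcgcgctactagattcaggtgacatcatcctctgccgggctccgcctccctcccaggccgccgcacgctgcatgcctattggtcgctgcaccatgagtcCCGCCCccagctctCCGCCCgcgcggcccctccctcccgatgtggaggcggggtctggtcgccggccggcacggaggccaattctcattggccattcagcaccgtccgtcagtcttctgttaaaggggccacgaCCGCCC
Pclo held 2 GC boxes and Ppfia3 3. Of the 32817 upstream windows in the RefSeq table, 32.7% held at least 1. The table had entries for 8 of the 10 members, not Rims2 and Rims4. Rims1 and Unc13a held 2 GC boxes each and Rims3 3, and Bsn, Erc2 and Rimbp2 held none. None of the 8 held the E-box CACGTG, which 6.02% of all windows held.

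All 10 genes were well expressed. Per kilobase of exon, Bsn had the highest mean level over the 16 mice at 41.2 ± 3.48 CPM per kilobase (SD, n = 16), followed by Unc13a at 38.9 ± 2.49, Rims1 at 33.6 ± 3.01, Ppfia3 at 33.4 ± 2.75, Rims3 at 28.2 ± 3.08, Rimbp2 at 23.9 ± 3.18, Rims4 at 20.1 ± 1.79, Erc2 at 18.5 ± 1.01, Pclo at 13.7 ± 1.33 and Rims2 at 11.1 ± 0.71. Rims2 lay above 76.5% and Bsn above 94.0% of the 18589 tested genes with a known length. Rims1 and Ppfia3 were not separated, with Rims1 higher in 8 of 16 mice. Bsn exceeded Unc13a, and Rims4 exceeded Erc2, in 12 of 16 mice. The other neighbours in this order kept their order in 14 to 16 mice, and only Erc2 and Pclo had ranges that did not overlap. Among the RIM genes the order was Rims1, Rims3, Rims4, Rims2, so that Rims3 and Rims4, the short forms, were both above Rims2 per kilobase. Exon length here is the union over all annotated isoforms, which lowers the value of genes with many long alternatives.

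**Figure D1:**
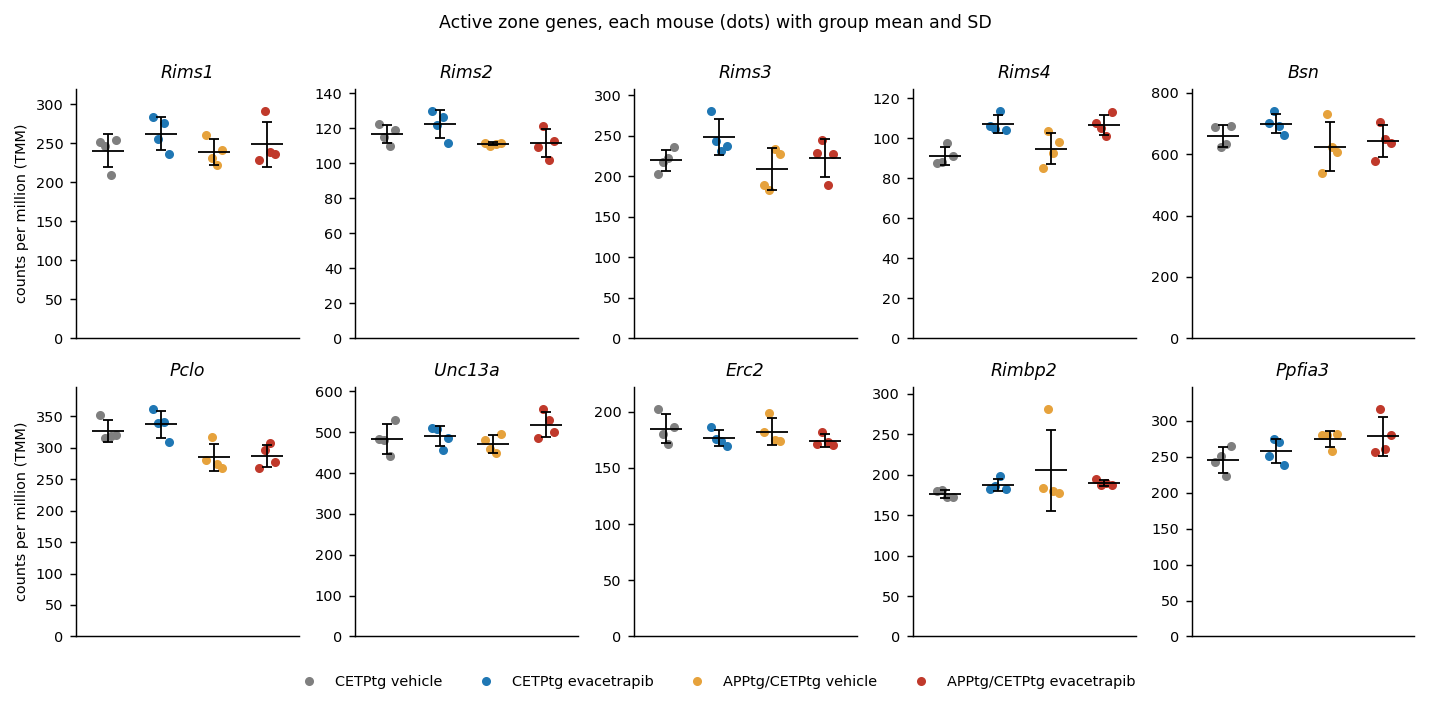
CPM (TMM scaling, linear axis from 0) of each active zone gene in each of 16 mice, by group; dots are mice, bars the group mean and SD. Rims4 lies higher in the evacetrapib groups, Pclo lower in the APPtg/CETPtg groups, and 1 APPtg/CETPtg vehicle mouse stands apart at 281 CPM for Rimbp2.

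Pclo, the piccolo gene, was lower in APPtg/CETPtg than in CETPtg mice under both treatments. Under vehicle it measured 352, 316, 318 and 319 CPM in the CETPtg mice (S1 to S4) and 281, 316, 275 and 267 CPM in the APPtg/CETPtg mice (S5 to S8). Under evacetrapib it measured 361, 339, 341 and 308 CPM in CETPtg mice (A to D) and 268, 296, 307 and 277 CPM in APPtg/CETPtg mice (E to H). The genotypes did not overlap under evacetrapib, which was so for 10.8% of all tested genes, and under vehicle they overlapped only through S6. Over all 16 mice, with treatment in the model, Pclo fell by 0.21 on the log2 scale (SE 0.04, edgeR quasi-likelihood test, adjusted p = 0.00168). The difference was called separately under vehicle (log2 -0.20, SE 0.06, adjusted p = 0.0442) and under evacetrapib (log2 -0.23, SE 0.06, adjusted p = 0.0454). Over all mice the edgeR adjusted p stayed at or under 0.00484 whichever mouse was left out. The call under vehicle was lost without any 1 of C, S1, S2, S3, S4, S5, S7 and S8 (edgeR adjusted p up to 0.125) and that under evacetrapib without any 1 of A, B, C, E, F and H (up to 0.152).

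Ppfia3, a liprin-alpha that helps to assemble the presynaptic scaffold, was the other gene called by genotype, in the opposite direction. Under vehicle its values were 243, 251, 223 and 265 CPM in CETPtg mice and 280, 280, 258 and 281 CPM in APPtg/CETPtg mice. Under evacetrapib they were 251, 274, 270 and 238 CPM in CETPtg mice and 257, 316, 261 and 280 CPM in APPtg/CETPtg mice. The genotype ranges overlapped under both treatments. Ppfia3 rose by 9.86% in APPtg/CETPtg mice (log2 0.14, SE 0.05, edgeR adjusted p = 0.0464), close to the threshold, and the call was lost without any 1 of A, D, F, H, S1, S2, S3, S5, S6 and S8, where the edgeR adjusted p reached 0.129. It was not called within either treatment (edgeR adjusted p = 0.121 under vehicle and 0.395 under evacetrapib).

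Together, 2 of 10 active zone genes were called by genotype at an adjusted p of 0.05 and a change of at least 5%, against 17.7% of all tested genes. Under vehicle 1 of 10 was called against 10.4%, and under evacetrapib 1 of 10 against 2.99%. The first of these shares is near that of all genes, and the others are a single gene each. Their median log2 difference was -0.03 and that of all tested genes 0.0046, with 6 of 10 lower in APPtg/CETPtg mice.

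The other 8 genes did not pass the test by genotype. Rims2, a long RIM, was at 120 ± 6.97 CPM (SD, n = 8) in CETPtg and 111 ± 5.25 CPM in APPtg/CETPtg mice, a log2 difference of -0.10 (SE 0.04, edgeR adjusted p = 0.0702). It passed the test without D, without F or without S3, at an edgeR adjusted p as low as 0.0271, and DESeq2 called it with all mice (adjusted p = 0.0443). In the APPtg/CETPtg vehicle mice Rims2 hardly varied, with values of 112, 110, 111 and 112 CPM. Rims3 gave -0.12 (SE 0.06, edgeR adjusted p = 0.199) and Bsn -0.10 (SE 0.05, edgeR adjusted p = 0.203). Rims1 gave -0.04, Erc2 -0.02, Unc13a 0.02 and Rims4 0.03, each with an SE between 0.04 and 0.06. Rims4 itself had almost the same mean in CETPtg (99.1 ± 9.46 CPM, SD, n = 8) and APPtg/CETPtg mice (101 ± 8.79 CPM).

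**Figure D2:**
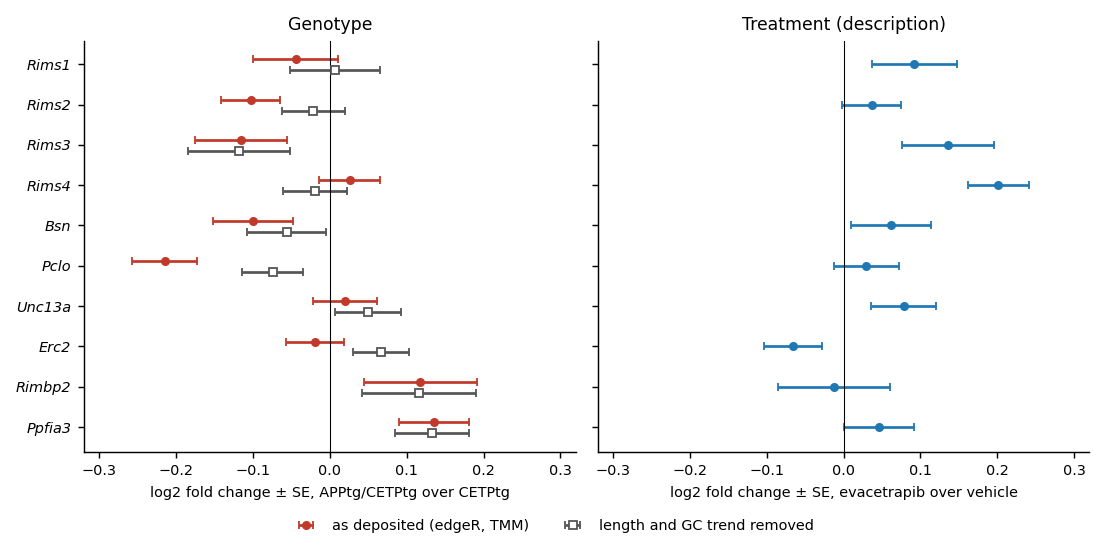
Left, log2 fold change ± SE of each active zone gene between APPtg/CETPtg and CETPtg mice (8 against 8), from the counts as deposited (filled) and with each mouse's trend of counts with exon length and GC content removed (open); right, evacetrapib against vehicle (8 against 8), shown as a description. Pclo moves from -0.21 to -0.07 when the trend is removed, while Ppfia3 stays at 0.13 to 0.14.

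The genotype difference moved with gene length over the whole table, and most active zone genes are long. From the shortest to the longest decile of tested genes by exon length, the median genotype log2 difference went from 0.11 to -0.10, and in the longest decile 590 genes were called lower in APPtg/CETPtg mice and 12 higher. In the shortest decile 33 were called lower and 284 higher. The treatment difference showed no such course, with medians between -0.01 and 0.01 in every decile. Pclo has 22457 bases of exon, and it, Bsn, Unc13a, Rims2 and Erc2 belong to the longest decile. Bsn and Rims2 lay at the median of that decile, Pclo 0.12 below it and Unc13a 0.12 above it. That decile runs from 9251 to 123179 bases, so its median need not be that of genes as long as Pclo. Ppfia3 and Rimbp2, in the next decile, lay 0.18 and 0.17 above its median of -0.05, and Rims4 is the shortest member with 4962 bases.

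When each mouse's trend of counts with exon length and GC content was removed, edgeR called no member by genotype (1 of 10 at an unadjusted p under 0.05), against 7.20% of all genes. The Pclo difference was then -0.07 (SE 0.04, edgeR adjusted p = 0.274), under vehicle -0.02 and under evacetrapib -0.13. Ppfia3 kept its size at 0.13 (SE 0.05) with an edgeR adjusted p of 0.101. Erc2, at -0.02 before, stood at 0.07 (SE 0.04) and Rims1 moved from -0.04 to 0.01. RNA integrity per mouse was not used here, and the part of depth, plate column or RNA quality in this trend was not tested.

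**Figure D3:**
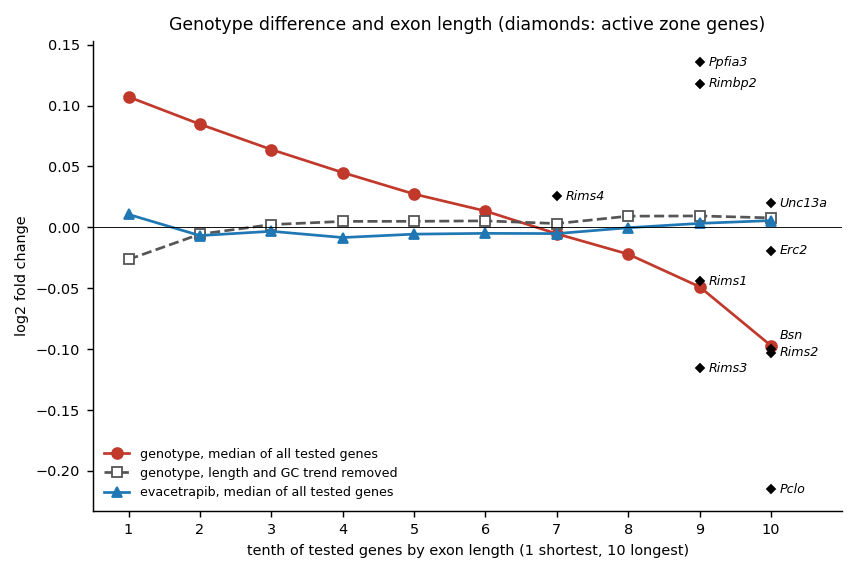
Median log2 fold change (y axis) of tested genes in deciles of exon length (x axis, 1859 or 1858 genes each) for genotype, for genotype with the length and GC trend removed, and for evacetrapib; diamonds mark the genotype value of each active zone gene. The genotype median falls from 0.11 to -0.10, and Pclo lies below and Ppfia3, Rimbp2 and Unc13a above the line.

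Rimbp2, which couples RIM to the calcium channels, lay between 172 and 199 CPM in every mouse except S6. Under vehicle it measured 180, 182, 172 and 172 CPM in CETPtg mice, and 183, 281, 180 and 178 CPM in APPtg/CETPtg mice. Under evacetrapib it measured 182, 186, 199 and 182 CPM in CETPtg mice, and 195, 187, 190 and 187 CPM in APPtg/CETPtg mice. The value of 281 CPM belongs to mouse S6. Without S6 the genotype log2 difference dropped from 0.12 to 0.02, and the difference under vehicle from 0.22 (SE 0.10, edgeR adjusted p = 0.182) to 0.02. S6 also had the highest Bsn of its group (731 CPM against 540 to 623 in S5, S7 and S8) and the highest Rims4 (104 CPM). In S6 the olfactory bulb markers summed to 202 CPM, against 21.1 to 72.4 in the other 3 mice of its group, and the choroid plexus markers to 172 CPM, the lowest of the 16 mice. Mice D, E and G had 180 to 211 CPM of olfactory bulb markers and 182 to 195 CPM of Rimbp2. The part of these regions in the Rimbp2 values was not tested. Leaving S6 out brought Bsn past the threshold by genotype (log2 -0.15, edgeR adjusted p = 0.0253).

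Under evacetrapib 8 of the 10 genes had a higher fitted level than under vehicle, with a median log2 difference of 0.05 against -0.0015 over all genes. No member was called by edgeR, against 0.0107% of all genes, and DESeq2 called Rims4 among 57 genes. Nothing is read from this since the contrast served to choose Rims4. Rims4 was at 87.7, 88.1, 97.5 and 91.1 CPM in CETPtg vehicle mice and at 106, 105, 113 and 104 CPM in CETPtg evacetrapib mice. In APPtg/CETPtg mice it was at 85.2, 104, 92.4 and 97.8 CPM under vehicle and at 108, 105, 101 and 113 CPM under evacetrapib. The treatment groups were apart in CETPtg mice and overlapped in APPtg/CETPtg mice through S6. Its log2 difference was 0.20 (SE 0.04), and leaving out each mouse in turn moved it between 0.19 and 0.23.

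The other RIM genes had smaller differences. Rims3 was at 203, 217, 222 and 236 CPM in CETPtg vehicle mice and at 280, 244, 231 and 238 CPM in CETPtg evacetrapib mice. In APPtg/CETPtg mice Rims3 was at 190, 183, 234 and 227 CPM under vehicle and at 228, 245, 190 and 227 CPM under evacetrapib. The groups overlapped in both genotypes, and the fitted log2 difference was 0.14 (SE 0.06). Rims1 gave 0.09 (SE 0.06) and Rims2 0.04 (SE 0.04).

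Of the scaffold and priming genes, Unc13a gave 0.08, Bsn 0.06, Ppfia3 0.05, Pclo 0.03, Rimbp2 -0.01 and Erc2 -0.07, with SEs between 0.04 and 0.07. Erc2 was at 202, 180, 171 and 186 CPM in CETPtg vehicle mice, 187, 176, 174 and 170 CPM in CETPtg evacetrapib mice, 182, 199, 175 and 174 CPM in APPtg/CETPtg vehicle mice and 172, 182, 173 and 171 CPM in APPtg/CETPtg evacetrapib mice. It was the only member with a negative value in both genotypes, and its ranges overlapped. In CETPtg mice Rims4 and Rimbp2 were the 2 of 10 members whose treatment groups did not overlap, against 3.92% of all genes, and in APPtg/CETPtg mice no member was so placed, against 4.29%. Of all genes, edgeR called 0% for the treatment in CETPtg mice (0 genes, with 1079 at an unadjusted p under 0.05 and 0 called by DESeq2) and 0.0430% in APPtg/CETPtg mice, with 0 of 10 members in each. Nothing is read from these counts of members, since Rims4 was chosen on this contrast. Endothelial markers moved with the treatment as well: 8 of 8 had a positive log2 difference, against 49.2% of all genes, and their median was 0.30. None was called by edgeR (7 of 8 at an unadjusted p under 0.05, against 1472 of all 18609 genes) and 4 by DESeq2. Their sum was 171 to 230 CPM under vehicle and 215 to 271 CPM under evacetrapib. These counts of markers are a description only, since the list was chosen with earlier results of these data known. Some of its genes are among those the study reported as changed by evacetrapib in the same mice. The part of the endothelial markers in the values of the active zone genes was not tested.

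The interaction asks whether the treatment difference depended on the APP transgene. No member was called, and 0% of all tested genes were called by edgeR (0 genes, with 1271 at an unadjusted p under 0.05 and 2 called by DESeq2). No member reached an unadjusted p of 0.05 in either tool. Rimbp2 had the widest value, a log2 difference of differences of -0.20 (SE 0.14, edgeR adjusted p = 0.789), which came to -0.01 without S6. Unc13a followed with 0.12 (SE 0.08, edgeR adjusted p = 0.786): its means were 484 ± 36.5 CPM (CETPtg vehicle), 490 ± 25.1 CPM (CETPtg evacetrapib), 471 ± 21.4 CPM (APPtg/CETPtg vehicle) and 518 ± 30.5 CPM (APPtg/CETPtg evacetrapib; SD, n = 4 each). Rims4 gave -0.06 (SE 0.08).

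The active zone genes varied together to different degrees within groups. After each group's mean was removed, Pclo and Erc2 had a Pearson r of 0.81 over the 16 mice, Rims1 and Rims2 0.81, Rims1 and Ppfia3 0.78, Rims2 and Ppfia3 0.69, Bsn and Pclo 0.67, Rims1 and Unc13a 0.66 and Rims2 and Erc2 0.56. Of the 45 pairs, 35 were positive and 14 were above 0.5, and the share over all gene pairs was not computed. Rims4 was nearest to Rimbp2 (0.50) and opposite to Unc13a (-0.43), and Rims3 was opposite to Rimbp2 (-0.51). These are descriptions of the same 16 libraries, which share depth and scaling between genes, and 1 mouse, S6, lies far from the rest in Rimbp2.

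**Figure D4:**
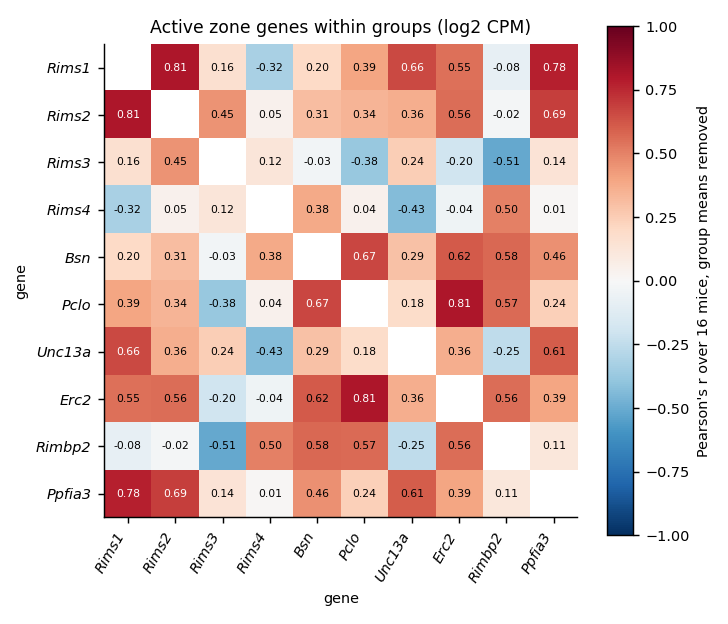
Pearson's r of log2 CPM between each pair of active zone genes over 16 mice with group means removed (colour scale from -1 to 1). The highest values are those of Pclo with Erc2 and Rims1 with Rims2 (0.81 each), and Rims4 is close to 0 or negative with most of the others.

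Of the 18608 other tested genes, those with log2 CPM most like Rims4 over the 16 mice (groups not removed) were Trim16 (r = 0.87), Socs7 (0.84), Tmem121b (0.83), Znrf1 (0.83) and Ccnd1 (0.82). Trim16 was at 0.99 to 2.13 CPM, so few reads carry it, while Socs7 was at 147 to 173 CPM. Only 6 genes had an r above 0.8. Since Rims4 was chosen for its treatment difference, genes picked for likeness to it share that pattern by construction: the 5 had log2 treatment differences from 0.09 for Socs7 to 0.39 for Trim16.

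The genes around the active zone were read from 9 further lists. These were chosen with earlier results of these data known, so counts of calls per list are a description. Beside the counts that follow stand the 17.7% of all tested genes called by genotype, and the 32.4% of the longest length decile. Of 10 calcium channel subunit genes 5 were called, all lower in APPtg/CETPtg mice, and 2 had positive values, with a list median of -0.14: Cacna1a, the P/Q-type pore subunit, at -0.17 (edgeR adjusted p = 0.00106), Cacna1e (-0.19), Cacnb4 (-0.23), Cacna2d1 (-0.21) and Cacnb2 (-0.12). Cacnb3 had the highest value of the list (0.10, not called). Adhesion molecules that hold the presynaptic side to its target had 6 of 11 called, all lower, with a median of -0.16. Among them were Nrxn3 (-0.26), Cadm2 (-0.26), Ptprd (-0.23), Nrxn2 (-0.16) and Cadm1 (-0.15), while Cadm3 stood at -0.0005. The median exon length was 9453 bases for the channels and 10440 for the adhesion genes. With the length and GC trend removed, 1 of 10 channel genes (Cacna1a) and 2 of 11 adhesion genes (Nrxn2 and Nrxn3) were called, all lower, against 7.20% of all genes, and the list medians were -0.03 and -0.06. Cacnb2 then stood at 0.0006.

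Genes of the vesicle and of fusion changed in both directions by genotype. Among 17 SNARE and fusion genes Stx1a (0.18) and Napa (0.11) rose and Vamp2 fell (-0.10), and Vamp1 had the lowest value (-0.17, not called). Among 13 synaptotagmins, a family that includes calcium sensors, Syt5 (0.18) and Syt17 (0.19) rose and Syt2 fell (-0.41). Among the vesicle proteins Syngr3 (0.12) and Syp (0.09) rose and Sv2c fell (-0.23), and Slc17a6 had the lowest value (-0.36, not called). Among 12 Rab3 genes and effectors, the vesicle side of the RIM contact, Madd rose (0.10) and Rab3c fell (-0.18), and Rab3d had the highest value (0.16, not called). Among 12 endocytosis genes Epn1 rose (0.12), and Dnm3 (-0.18) and Picalm (-0.10) fell. With the length and GC trend removed, Vamp2 (-0.16) and Syt2 (-0.40) were still called. The calls of Stx1a (then 0.09), Napa (0.05), Syt5 (0.09), Syt17 (0.15), Syngr3 (0.02), Syp (0.07), Sv2c (-0.16), Madd (0.11), Rab3c (-0.02), Epn1 (0.05) and Dnm3 (-0.01) were lost, and Picalm was lost with its direction turned (0.07).

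The nearest relatives of the members had 1 of 9 called, Unc13c, a Munc13 gene, which fell (-0.32), and Tspoap1, a RIM-binding protein gene, had the highest value (0.07). Of 16 postsynaptic scaffold genes 4 fell: Shank1 (-0.22), Dlg4 (-0.15), Shank2 (-0.13) and Dlg2 (-0.10), and Dlg3 was highest (0.02). With the trend removed only Shank1 of these 5 called genes was still called (-0.19). Shank2 (-0.11, edgeR adjusted p = 0.0899), Dlg4 (-0.11, edgeR adjusted p = 0.0909) and Unc13c (-0.24) lost their calls, and Dlg2 turned to 0.05. Unc13b and Rab3gap1 were among the list genes called with the trend removed alone.

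**Figure D5:**
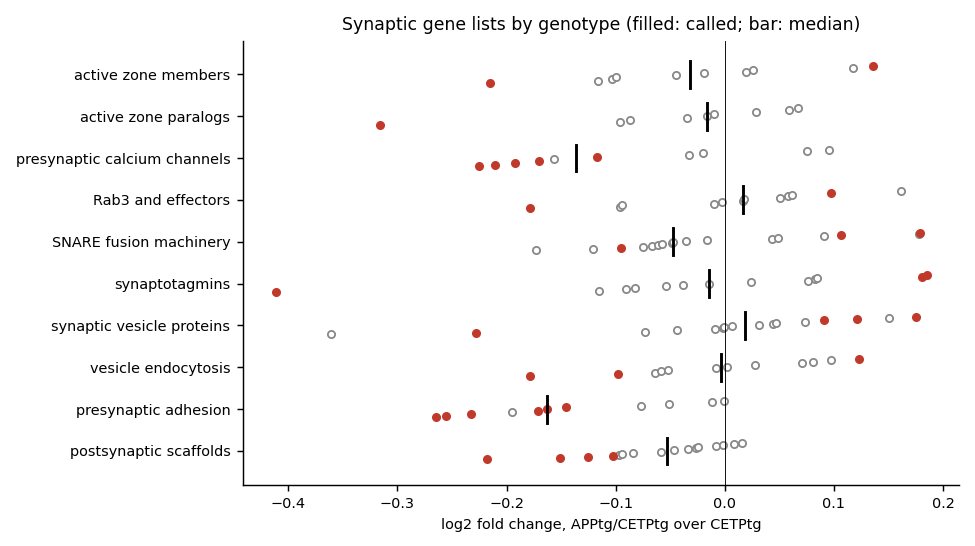
Log2 fold change between APPtg/CETPtg and CETPtg mice (x axis) of every tested gene in the active zone set and 9 related lists (rows); filled dots passed the edgeR test and bars mark list medians. Values are from the counts with the length trend in place. Called channel, adhesion and postsynaptic genes lie below 0, where Cacnb2 and Dlg2 turned to values above 0 with the trend removed, and the vesicle and fusion lists hold called genes on both sides.

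Some of these genes were called when the treatments were taken apart. Under vehicle 18 of the 116 list genes were called, against 10.4% of all genes and 22.3% of the longest length decile. Under evacetrapib 6 were called, against 2.99% of all genes and 7.10% of that decile. These fits kept the length trend. Its decile medians under vehicle ran from 0.13 (shortest genes) to -0.13 (longest). Genes named below as risen have 2226 (Rab3a) to 4196 (Rab3d) bases of exon, and those named as fallen under vehicle 9700 (Sv2c) to 25228 (Cacna1e). Among those called under vehicle, Rab3d (0.28), Rab3a (0.12), Napa (0.17), Stx1a (0.26), Doc2a (0.33), Syt5 (0.28) and Epn1 (0.17) rose, and Cacna1e (-0.26), Cacna2d1 (-0.24), Sv2c (-0.30), Dnm3 (-0.20), Nrxn2 (-0.19), Nrxn3 (-0.33), Cadm2 (-0.24), Ptprd (-0.22) and Shank1 (-0.25) fell. Under evacetrapib Cacna1a (-0.20), Vamp1 (-0.35), Syt2 (-0.60), Nrxn3 (-0.20), Cadm2 (-0.27) and Ptprd (-0.24) fell. Of the 116 list genes edgeR and DESeq2 called 0 in the interaction (13 at an unadjusted p under 0.05), so these 2 sets are not shown to differ.

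In the evacetrapib comparison edgeR called 0 of the 116 genes of the 9 lists (14 at an unadjusted p under 0.05), and DESeq2 called 1, Shank1. The postsynaptic scaffolds had 15 of 16 positive values with a median of 0.07, led by Shank1 (0.24, SE 0.05, edgeR adjusted p = 0.134) with Homer3 lowest (-0.05). The other list medians lay between -0.06 and 0.03. At the ends of these lists stood Erc1 (0.06) and Unc13d (-0.17) among the relatives, Cacna1a (0.09) and Cacna2d2 (-0.11) among the channels, Rph3a (0.11) and Rab27a (-0.10) among the Rab3 genes, and Stx1a (0.09) and Cplx3 (-0.14) among the fusion genes. The same held for Syt12 (0.13) and Syt10 (-0.20), Sv2c (0.04) and Slc17a6 (-0.24), Itsn1 (0.07) and Snap91 (-0.07), and Nrxn2 (0.07) and Flrt3 (-0.03).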

How the data were processed

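Poly(A) RNA of 16 female mouse brains was sequenced from directional libraries. The authors trimmed reads (Trimmomatic 0.39), aligned them to mm10 (STAR 2.7.8a) and deposited raw counts per gene (HTSeq). All 16 columns of the count table were mapped to a mouse by name, and 0 were left over. The 10 members and 23 gene lists were chosen with earlier results of these data known. Genes reaching 10 counts in 4 mice were tested with edgeR 4.0.16 (quasi-likelihood F test, TMM, R 4.3.3) in a model of genotype and treatment, or of 4 group means for comparisons within a level and for the interaction. A call needed a Benjamini-Hochberg adjusted p of at most 0.05 over all 18609 genes and a change of at least 5%. DESeq2 1.42.0 was an alternative. The study compared treatments with DESeq2. CPM use TMM-scaled totals, log2 CPM a prior count of 2. Exon lengths, coding lengths and positions came from GENCODE M21 (GRCm38), where 55227 of 55487 gene IDs were found, and upstream sequence from RefSeq. Length and GC trends were removed by a spline fit per mouse, on 18583 genes, used as an offset. This fit and the block by header number were added after seeing the data. Some list genes are not reported here. Named genes are otherwise the members, every list gene called, the highest and lowest value of each list, 5 genes most correlated with Rims4, and Thy1 and App. On simulated counts for the genotype comparison (18386 genes), 40% of genes changed 1.15-fold and 80% of those changed 1.3-fold were called, and for the evacetrapib comparison (18377 genes) 20% and 80%. The simulation changed few genes and held no length trend, whereas 17.7% of genes were called by genotype in the data. Its shares are therefore not the sensitivity for the members. Counting error is small at these depths: no member had under 1879 counts in any mouse.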

Additional observations from a re-analysis of the deposited data

Results flagged for a closer look

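Each member was checked for a mouse far from the other 3 of its group, in 40 sets of 4 mice, of which chance alone would place about 1 in 20 past the limit used, Dixon's 95% critical value for 4 samples. There were 4. Rimbp2 was at 280.5 CPM in mouse S6 (APPtg/CETPtg vehicle), with the others at 178 to 183 CPM. Rims1 was at 290.8 CPM in mouse F (APPtg/CETPtg evacetrapib), with the others at 228 to 238 CPM. Pclo was at 351.8 CPM in mouse S1 (CETPtg vehicle), with the others at 316 to 319 CPM. Ppfia3 was low at 258.1 CPM in mouse S7 (APPtg/CETPtg vehicle), with the others at 280 to 281 CPM. Without S1 the Pclo difference by genotype remained called over all mice but not under vehicle, and without S7 the Ppfia3 difference stayed called. No member passed the test for a treatment difference that depends on genotype.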

How the results depend on the processing

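The Pclo difference by genotype over all mice was called in 8 of 10 alternatives, and the Ppfia3 difference in 6 of 10. Neither changed direction. By genotype, 1 member was called with DESeq2 size factors and 1 without a count filter. With the length and GC trend removed, the genotype comparison called 1339 genes and 0 members, 873 genes and 0 members when the plate row was also a block, 521 genes and 0 members under vehicle, and 159 genes and 0 members under evacetrapib. An adjusted p of 0.1 gave 3007 calls by genotype under vehicle and 1260 under evacetrapib, where the DESeq2 test gave 1135. The interaction gave 2 calls with DESeq2, 29 without a filter, and 2 with the plate row as block, alone or with the trend removed. The evacetrapib comparison gave 57 genes and 1 member with DESeq2, 35 genes and 1 member without a filter, and 1 gene with no genotype term. Nothing is read from these calls of a member, since Rims4 was chosen on this contrast in the same mice. In CETPtg mice it gave 9 genes without a filter. In APPtg/CETPtg mice it gave 73 genes with DESeq2, 88 without a filter, 5 with the replicate block and 4 with the trend removed. The cause was not tested.

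Leaving out each mouse gave 1 to 2 members by genotype. Under vehicle it gave 909 to 1998 genes, moved most without S3 (909), S1 (1007) or S8 (1215), and 0 to 1 member. Under evacetrapib it gave 91 genes (without A) to 858 (without B), with 206 to 335 without C, E, F, G or H, and 0 to 1 member. The interaction gave 0 to 1 gene (without S2). The evacetrapib comparison gave 0 to 8 genes (without S8) and 0 to 1 member, the 1 being found without S6. The call of a member is not read as a result, since Rims4 was chosen on this contrast. In APPtg/CETPtg mice the comparison gave 0 (without G) to 14 genes (without S8).

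The header numbers 1 to 4 were not taken to pair the mice: deviations of same-numbered mice correlated between -0.20 and 0.17 (24 pairs, 1 above 0.1), and those of mice in the same plate row between -0.12 and 0.17 (8 pairs, 1 above 0.1). The replicate block by header number called 3227 genes by genotype in place of 3299, and 2 members as before. Apart from the evacetrapib comparison in APPtg/CETPtg mice (8 genes to 5), no count of calls moved by over 1.5 times with this block.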

Other observations

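Marker lists show what else moved in the same tissue by genotype (APPtg/CETPtg against CETPtg, log2, edgeR, against 17.7% of all genes called). Earlier results of these data were known when the lists were chosen, so their counts are a description. Microglial genes had 3 of 8 called, all higher: Aif1 (0.38), Tmem119 (0.30) and C1qa (0.22). Oligodendrocyte genes had 4 of 8 called, all lower: among them the myelin genes Cldn11 (-0.24), Mobp (-0.23) and Mbp (-0.20). Astrocyte genes had Slc1a2 (-0.35) and Gja1 (-0.20) lower and Aldoc (0.14) higher. Neuronal genes had Stmn2 higher (0.14) and Nefm lower (-0.15), none of 8 excitatory markers was called (2 at an unadjusted p under 0.05), and of the inhibitory markers Vip (0.34) and Sst (0.19) were higher. Called regional markers included Fezf2 (0.32), Rorb (-0.43) and Bcl11b (-0.25) for cortex, Prox1 (-0.32) and Fibcd1 (-0.21) for hippocampus and Zic1 (-0.37) for cerebellum. Most hippocampus markers went the other way: 4 of 7 had positive values, and the list median was 0.12. Of 8 endothelial genes Slco1a4 was lower (-0.24). None of 7 choroid plexus and 6 olfactory bulb markers was called (0 at an unadjusted p under 0.05 in each list, and none by DESeq2). With the length and GC trend removed, where 7.20% of all genes were called, Tmem119 (0.20), Cldn11 (-0.32), Mobp (-0.23), Slc1a2 (-0.25), Stmn2 (0.21), Vip (0.45), Bcl11b (-0.25) and Fibcd1 (-0.26) were among those still called. Aif1 (then 0.28), C1qa (0.07), Mbp (-0.20), Gja1 (-0.10), Aldoc (0.07), Nefm (-0.18), Sst (0.01), Fezf2 (0.24), Rorb (-0.28), Prox1 (-0.27), Zic1 (-0.35) and Slco1a4 (-0.10) lost their calls with no change of direction.

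By treatment edgeR called none of the 97 marker genes tested (18 at an unadjusted p under 0.05), and DESeq2 called 4, all endothelial: Pecam1, Flt1, Cdh5 and Kdr. These calls are a description only, since the marker lists were chosen with earlier results of these data known. The study had reported the same endothelial genes on this contrast in the same mice.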
